A study of Bos taurus with 147 samples.

Results

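GNLY encodes granulysin, called NK-lysin in cattle and pigs. The protein belongs to the saposin-like family and is stored in the cytotoxic granules of natural killer (NK) cells and activated T cells together with perforin and the granzymes. When such a cell attacks, the granules are released onto the target, perforin opens its membrane, and granulysin damages the membranes of bacteria and of infected or tumour cells. Human GNLY has no counterpart in the mouse, whereas cattle carry several NK-lysin gene copies side by side. The adrenal cortex makes steroid hormones and is not a lymphoid organ, so transcripts of T and NK cells in this tissue are usually taken to come from leukocytes in the gland or in its blood.

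GNLY is represented here by 1 of 10986 transcripts, cluster 12704196, which lies on the minus strand of chromosome 11 from 49095462 to 49096946 in the UMD3.1 assembly. It was selected on its log2 values in these cows, for their wide spread and their split into low and high ones, so its levels, its spread and its split into low and high values are a description and carry no test. The samples were adrenal cortices of 145 cows, the F2 generation of Charolais bulls crossed to German Holstein cows, slaughtered from the class Summer2004 to the class autumn2011 at 1127 to 1774 days of age (mean 1321, SD 120.4). All were female, had calved for the second time and were killed at a fixed interval after calving, and no cow received an experimental treatment. The labels place the cows in 25 classes of year and season of slaughter holding 2 to 13 cows each. Each cow is 1 array of a custom Affymetrix gene chip, and values are log2 signals after robust multi-array averaging (RMA), so that 1 unit is a 2-fold difference in signal.

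The arrays had similar medians (7.89 to 8.08), and the correlations between pairs of arrays ran from 0.895 to 0.991 with a median of 0.973. No 2 arrays were identical. Of 13 listed adrenal cortex genes, 9 were in the table, and their mean level lay between 12.09 and 12.60 in every cow. Of 9 listed adrenal medulla genes, 6 were in the table, with a mean level from 6.82 to 11.76 across cows, so the cortex samples differed in their content of medulla transcripts. Because whole tissue was measured, fewer cells of a type and less RNA per cell cannot be told apart.

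GNLY varied widely between cows. The lowest cow had a log2 signal of 1.86 and the highest 9.07, a 147.8-fold difference, with a median of 7.03 and quartiles of 5.45 and 7.93. The SD over the cows was 1.93, and 73 cows lay above 7 whereas 23 lay below 4. Most cows were thus at high values, with a long arm of low ones. After removal of class means and age, the residual SD was 1.94, the third highest of the 10986 transcripts.

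The deposited values were described by a low group of 35 cows and a high group of 110 cows. These groups came from normal mixtures of 1 to 3 components with equal variance, of which the Bayesian information criterion (BIC) was best for 2, by 52.1 over a single component. The low group had a mean of 3.44 and ran from 1.86 to 5.08, and the high group had a mean of 7.38 and ran from 5.26 to 9.07. Their means were 3.94 log2 units apart, a 15.3-fold difference in signal, and the SD within a group was 0.927. Only 4 cows had a probability above 0.1 of belonging to the other group. No empty stretch divided the groups widely, since the widest gap inside the distribution, from 4.61 to 5.08, took up 6.6% of the range, with 34 cows below and 111 above it.

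With class means and age removed, the split was less sharp. The residuals again gave 2 components, of 33 and 112 cows with means 3.18 log2 units apart (9.07-fold), but the gain in BIC over a single component was 6.49 and 27 cows were uncertain by the same limit. The low component held 22.8% of the cows. Between the deposited values and the residuals, 137 cows kept their side, 3 were low in the residuals only and 5 in the deposited values only. When components were allowed unequal variance, 37 cows were low, with a gain in BIC of 1.38 and 43 uncertain cows. Without the cows of 2008, the residuals were described by a single component.

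**Figure D1:**
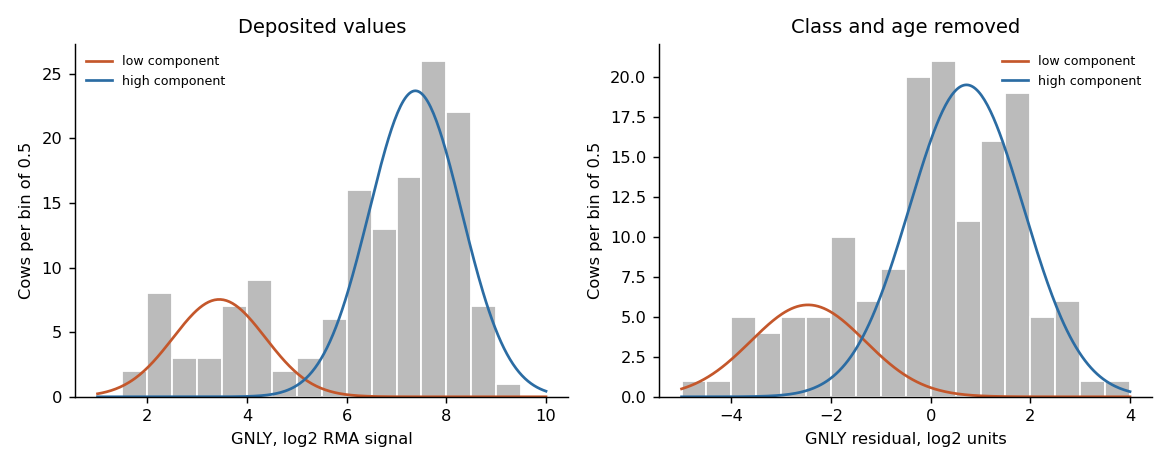
Number of cows per bin of 0.5 log2 units for GNLY, as deposited on the left and with class and age removed on the right. Curves are the low and high normal components scaled to the number of cows assigned to each. For the deposited values the fitted curves are centred at 3.44 and 7.38, which are component means and not peaks of the bars. The residuals show a broader overlap of the components.

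Low and high cows occurred side by side in most classes. Of the 25 classes, 19 held cows of both groups, 6 held only high cows (24 cows in all), and 0 held only low cows. In Summer2004 the values were 3.84, 6.20 and 8.28. In autumn2004 they were 5.88, 7.83, 7.85 and 8.40. All 4 autumn cows of that year were in the high group, whereas the summer class spanned both.

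Low cows were also frequent in the 3 classes from Spring2005 to autumn2005. In Spring2005 the 5 cows had 2.43, 3.71, 4.40, 7.98 and 8.11. In Summer2005 the values were 3.59, 4.50, 7.53 and 8.00, and in autumn2005 they were 2.01 and 8.18. Each of these classes held low and high cows with no cow between 4.50 and 7.53. In Spring2006 the cows had 3.89, 6.39, 6.61 and 7.87, and in Summer2006 they had 6.32 and 6.67. Values near 6.50, missing from the 3 classes before, made up most of these.

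In Spring2007 the 3 cows had 5.95, 7.18 and 8.75. The Summer2007 values were 2.30, 3.05, 6.88, 7.50 and 8.39. In autumn2007 the 7 cows ran from 5.81 over a median of 7.84 to 8.96. Spring and autumn of that year therefore held high cows only, and the low cows were those of summer and of the winter that followed. The 7 cows of winter2007/2008 ran from 4.43 over a median of 6.37 to 8.41.

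The year 2008 held the most cows. The 13 cows of Spring2008 ran from 2.74 over 6.55 to 8.47, and the 8 of Summer2008 from 1.97 over 7.53 to 8.09. The 10 cows of autumn2008 included the lowest of all and ran from 1.86 over 7.04 to 8.98. In winter2008/2009 the 8 cows had a lowest value of 4.61, a median of 6.81 and a highest of 8.13. A low cow was present in each class, and in spring, summer and winter there was only 1.

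In Spring2009 the 4 cows had 4.09, 7.14, 7.97 and 8.57. Summer2009 was the class with the most low cows, 6 of 9, and ran from 2.06 over a median of 3.93 to 8.32. With the class mean and age removed, 2 of these cows remained low in the residuals. The class autumn2009 was narrow, with 7 cows from 5.08 over 6.60 to 7.57. The 4 cows of winter2009/2010 had 4.43, 4.44, 7.30 and 7.66, again with no value in the middle.

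In Summer2010 the 8 cows ran from 2.36 over 7.25 to 8.80, and the 6 of autumn2010 from 2.52 over 6.56 to 8.19. The 7 cows of winter2010/2011 ran from 2.73 over 7.39 to 7.94. Each of these classes held 2 low cows. In Spring2011 the 7 cows ran from 3.17 over 6.45 to 7.89. The last classes were high throughout, with 6 cows of Summer2011 from 7.36 over 8.17 to 9.07 and the autumn2011 cows at 8.10 and 8.14.

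**Figure D2:**
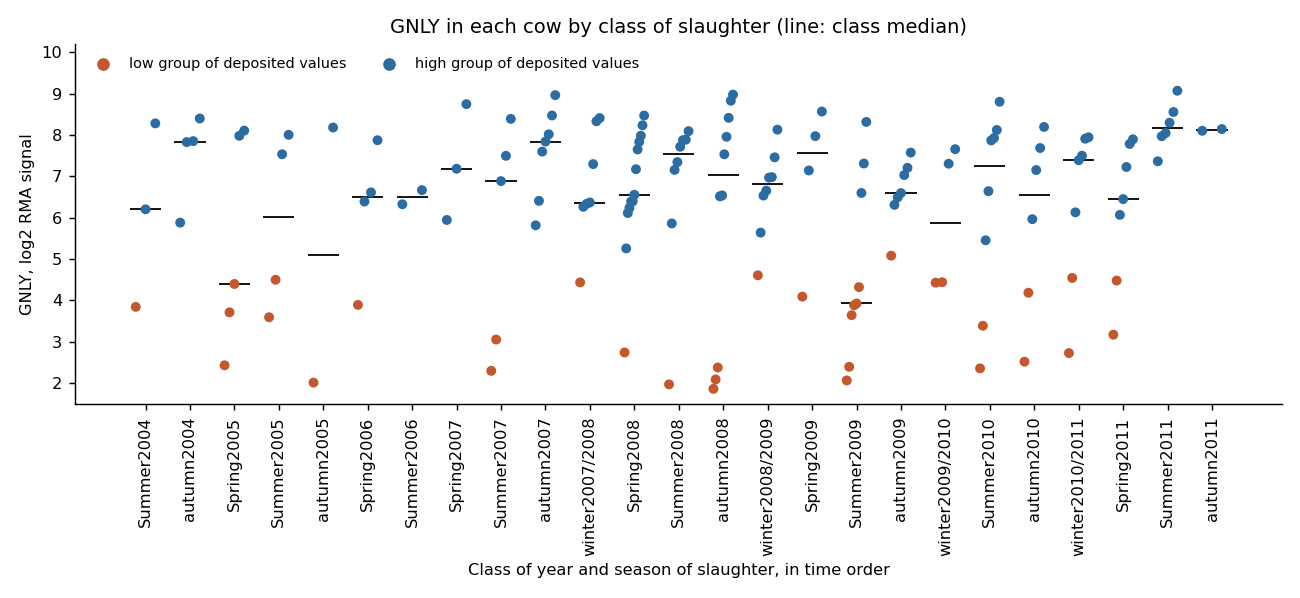
Log2 signal of GNLY in each of the 145 cows (points) by class of year and season of slaughter in time order, with the class median as a line. Orange points are the 35 cows of the low group and blue points the 110 cows of the high group, and cows of both groups appear in 19 of 25 classes.

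By year of slaughter, with a winter counted for the year in which it began, the highest median was that of the 2011 cows (7.89), followed by Summer2004 with autumn2004 (7.83, 7 cows) and Spring2007 to winter2007/2008 (7.24, 22 cows). The medians of 2010, 2008 and 2009 were 7.15, 6.98 and 6.54, and that of Spring2006 with Summer2006 was 6.50 (6 cows). The lowest was 4.50, in Spring2005 to autumn2005. The ranges of all 8 years overlapped. Only the last stood away from its neighbour in this order, and its 11 cows had an SD of 2.47 around a mean of 5.49. Of these 11 cows 54.5% were in the low group, against 41.7% of the 2009 cows and 13.3 to 28.6% in the other years.

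No difference of GNLY between the classes was detected beyond the spread within them. In a limma fit over all transcripts with age as a covariate, the F statistic over the 25 classes was 1.03 (adjusted p = 0.743, Benjamini-Hochberg over 10986 transcripts), while 11.6% of all transcripts passed an adjusted p of 0.05. With the year as a linear term and the class as a random block, the slope of GNLY was 0.05 log2 units per year (standard error 0.0841, 95% interval -0.12 to 0.22, limma adjusted p = 0.657). In the same fit 44.9% of all transcripts passed. The year slope turned negative without Spring2005 to autumn2005 (-0.02) or without 2011 (-0.04), and it passed the threshold in neither case.

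GNLY was scattered in every season and at every age. In autumn the 38 cows had a lowest value of 1.86, a median of 7.37 and a highest of 8.98. The 45 summer cows ran from 1.97 over 7.16 to 9.07. Winter gave 2.73, 6.81 and 8.41 for 26 cows. For the 36 spring cows these values were 2.43, 6.58 and 8.75. Neighbouring medians in this order lay closer together than the SD within any season, which was smallest in winter (1.48) and largest in summer (2.20).

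With year and age as covariates and the class as a random block, the estimate for summer minus winter was -0.25 log2 units (95% interval -1.15 to 0.66, standard error 0.456, limma adjusted p = 0.805). The unadjusted median was higher in summer (7.16) than in winter (6.81). No transcript differed between summer and winter at an adjusted p of 0.05 (0% called). The sign for GNLY turned without 2009 and also with values ranked first (normal scores). Per 100 days of age, GNLY changed by 0.06 log2 units (standard error 0.159, 95% interval -0.26 to 0.37, limma adjusted p = 0.885). Age also gave 0% of transcripts called, with 930 of 10986 at an unadjusted p under 0.05. The 40 youngest cows, of 1127 to 1246 days, had a median of 7.01, and the 36 oldest, of 1366 to 1774 days, had 7.34. With the cows in 4 bands of age, each band held a cow at 2.30 or lower, and the highest cow of every band lay between 8.83 and 9.07.

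**Figure D3:**
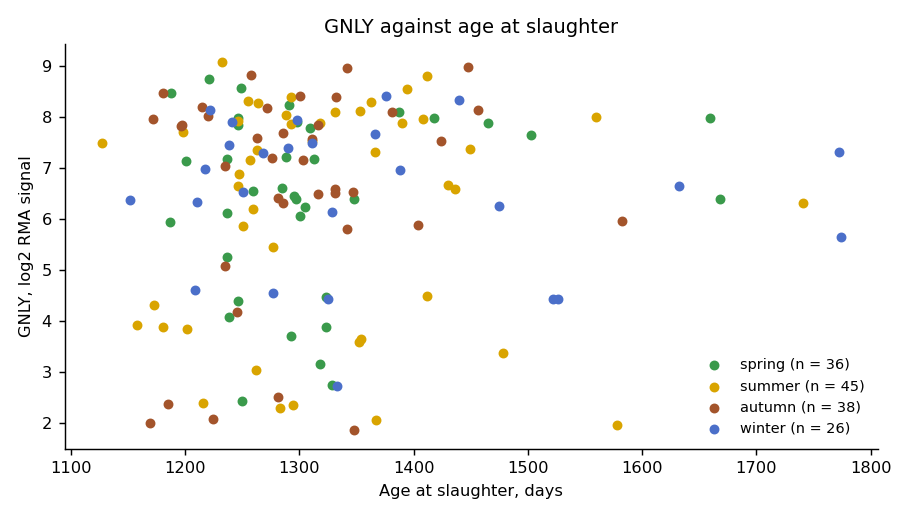
Log2 signal of GNLY in each cow against age at slaughter in days, coloured by season. Low and high values occur in every season and across most of the age range, and the fitted slope is 0.06 log2 units per 100 days with a standard error of 0.159.

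Whether GNLY moves with the cells known to make it was examined through genes that mark T and NK cells. Each of the other 10985 transcripts was regressed on GNLY across the 145 cows, with class and age in the fit, and the slope says how many log2 units a transcript changes per log2 unit of GNLY. Of all transcripts, 603 (5.49%) passed an adjusted p of 0.05 in limma, 302 with a positive slope (2.75%) and 301 with a negative one (2.74%). The smallest adjusted p was 0.0342, and 3866 transcripts had an unadjusted p under 0.05, so the calls lay close to the threshold.

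Of 102 listed T and NK cell genes, 20 were in the table, and 7 of these passed, all with a positive slope (35.0%, beside 5.49% of all transcripts). Slopes were positive for 17 of the 20, against 54.5% of all transcripts, and their median was 0.0466 against 0.00319 over all transcripts. Granzyme genes and most NK receptors were not among the 20. Among 12 genes of the NK and cytotoxic list, 12 had positive slopes and 4 passed. Among 8 genes of the T cell list, 5 had positive slopes and 3 passed.

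Of the cytotoxic genes, NKG7, a membrane protein of cytotoxic granules, ran from 5.91 over a median of 7.21 to 8.61 and rose by 0.09 log2 units per unit of GNLY (standard error 0.0222, limma adjusted p = 0.0342). PRF1, perforin, ran from 5.90 over 6.57 to 7.69 and had a slope of 0.05 (standard error 0.0121, limma adjusted p = 0.0350). The signalling adaptors FCER1G and TYROBP, which NK receptors and myeloid receptors share, had slopes of 0.07 each (standard errors 0.0193 and 0.0199, limma adjusted p = 0.0411 and 0.0415). These slopes are per log2 unit of GNLY, whose own values ranged over 7.21 log2 units.

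Of the T cell genes, CD3D and CD3E, subunits of the T cell receptor complex, had slopes of 0.11 (standard error 0.0270, limma adjusted p = 0.0342) and 0.09 (standard error 0.0236, limma adjusted p = 0.0378). CD3D ran from 5.49 over 6.87 to 9.06 and CD3E from 6.54 over 7.73 to 9.80. CXCR3, a chemokine receptor of activated T and NK cells, had a slope of 0.04 (standard error 0.0130, limma adjusted p = 0.0482). The transcription factors LEF1 and TCF7 of naive T cells and the kinase PRKCQ had slopes of -0.04, -0.00247 and -0.02 that did not pass. Their mean levels, 8.67, 9.51 and 9.16, lay above those of CD3D (6.90) and CD3E (7.79). Whether their signal in this tissue comes from T cells was not tested.

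The remaining cytotoxic genes did not pass. The chemokine genes XCL2 and CCL3 had slopes of 0.06 and 0.05 (limma adjusted p = 0.0557 and 0.0575), and the receptor genes SLAMF7 and FCGR3A had 0.06 each (limma adjusted p = 0.0700 and 0.0934). CX3CR1, a chemokine receptor of mature NK cells, had a slope of 0.00488 (limma adjusted p = 0.836), and SRGN, the proteoglycan that packs granule proteins, had 0.03 (limma adjusted p = 0.471). The interleukin receptor chain IL2RG, at 0.06, had an adjusted p of 0.0574 in limma.

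Whether these transcripts passed changed with small changes of the fit, while the slopes of the 7 T and NK genes that passed kept their sign under every alternative run. With the first principal component of the residuals of the other transcripts as a covariate, which carried 29.0% of their variance, 0 of 10985 transcripts were called in limma. At an unadjusted p under 0.05 there were then 1010 transcripts (9.19%), and 12 of the 20 T and NK genes were among them. Shares of other leukocyte lists in this fit are given further below. The slopes of NKG7, CD3D, CD3E and PRF1 were 0.06, 0.10, 0.08 and 0.03 in this fit, with limma adjusted p of 0.366, 0.273, 0.355 and 0.423.

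Within the low and high components of the residuals, 0 transcripts were called (3008 at an unadjusted p under 0.05, with a smallest limma adjusted p of 0.0763). The slopes of NKG7, CD3D, CD3E and PRF1 were larger there than over all cows, at 0.14, 0.15, 0.12 and 0.08, and so were their standard errors, at 0.0416, 0.0507, 0.0443 and 0.0226. With the groups of the deposited values as the term 3042 transcripts were called, 10 of the T and NK genes among them. Ranking the GNLY values first (normal scores) gave 3366 calls and 13 of the 20 T and NK genes.

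No transcript was called without Spring2007 to winter2007/2008, nor without the years 2008, 2010 or 2011, nor without the first cow of Summer2004 or either cow of autumn2005. The slopes moved less than the calls. Single cows were left out in turn only in classes of 2 to 5 cows, 42 cows in all. Over these, the slope of CD3D ran from 0.10 to 0.12 (limma adjusted p 0.0128 to 0.0854) and that of NKG7 from 0.09 to 0.10 (limma adjusted p 0.0150 to 0.0854). Over the 8 years left out in turn, CD3D ran from 0.09 to 0.13 and NKG7 from 0.07 to 0.11, with the lowest slope of each without 2008.

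**Figure D4:**
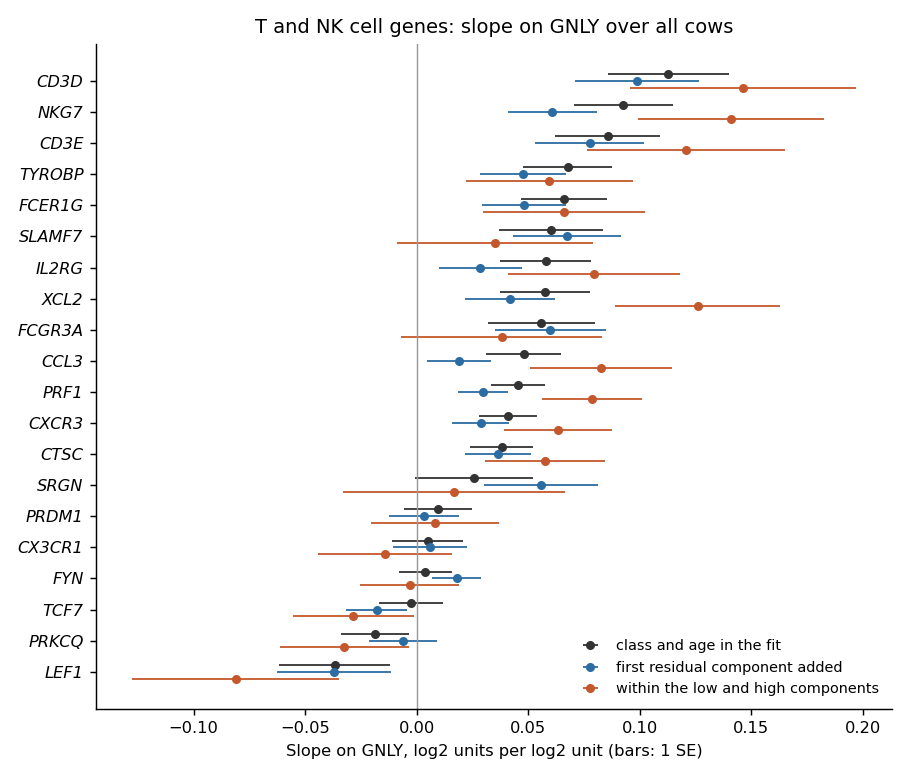
Slopes on GNLY of the 20 T and NK cell genes, in log2 units per log2 unit of GNLY with bars of 1 standard error, in 3 fits over 145 cows. Black points are the fit with class and age, blue points add the first residual component and orange points add the low or high component. CD3D had the largest slope in the black and orange fits, at 0.11 and 0.15, and also in the blue fit at 0.10.

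Since GNLY fell into 2 components, correlations with other genes were taken inside each, on residuals of class and age. P-values were adjusted over 52 relations, those of the 20 T and NK genes and the 6 nearest measured genes in each component. In the low component of 33 cows, r with the 20 T and NK genes ran from -0.128 to 0.556 with a median of 0.144. In the high component of 112 cows it ran from -0.156 to 0.272 with a median of 0.150. Correlations were positive for 17 and 15 of the 20 genes, and all of them were modest except that with perforin among low cows.

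PRF1 in the low component had r = 0.556 and rho = 0.539 (permutation p = 9.7e-04, adjusted p = 0.0170 for r and 0.0248 for rho), and when the 2 cows with the most extreme GNLY residuals were dropped r was 0.479. In the high component PRF1 had r = 0.234 (permutation p = 0.0128, adjusted p = 0.0951) and rho = 0.193 (adjusted p = 0.126). Whether r differs between the components was not tested. NKG7 in the high component had r = 0.272 and rho = 0.256 (adjusted p = 0.0481 and 0.0835 by permutation, r = 0.248 without 2 cows), so it passed for r only. XCL2 there had r = 0.25 and rho = 0.246 (adjusted p = 0.0786 and 0.0854 by permutation), and CD3D had r = 0.238 and rho = 0.227 (adjusted p = 0.0951 and 0.101 by permutation), and neither passed.

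CD3D, CD3E, NKG7 and PRF1 were correlated with each other. These correlations were taken over all cows, whereas those with GNLY were taken inside its components. GNLY varies less inside a component, so the values are not like for like. CD3D and CD3E had r = 0.932 and rho = 0.920 over the 145 cows, CD3D and NKG7 had r = 0.665 and rho = 0.669, and NKG7 and PRF1 had r = 0.596 and rho = 0.544 (permutation p = 1e-05 for each, the smallest that the permutations can give, and the same after adjustment over 6 pairs). Without the 2 farthest cows these r were 0.921, 0.647 and 0.542. The residuals of each of these 4 genes were described by a single component. The other pairs, CD3E with NKG7, CD3D with PRF1 and CD3E with PRF1, had r of 0.660, 0.621 and 0.57, with rho of 0.685, 0.547 and 0.492.

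Most of the spread of GNLY was left when the T and NK genes were taken into account. With all 20 as covariates besides class and age, the residual SD of GNLY fell from 1.94 to 1.82, or by 5.9%. For CD3D, with the other 19 as covariates, it fell from 0.616 to 0.219, or by 64.5%. The fall was 63.8% for CD3E, 60.4% for NKG7 and 28.1% for PRF1. The smallest falls among the 20 genes were 7.6% for TCF7, 9.1% for PRDM1, a transcription factor of effector lymphocytes, and 13.8% for XCL2, so GNLY had the smallest fall of the 21. These falls are a description without a test. With the first residual component as the covariate, the SD of GNLY was 1.88.

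**Figure D5:**
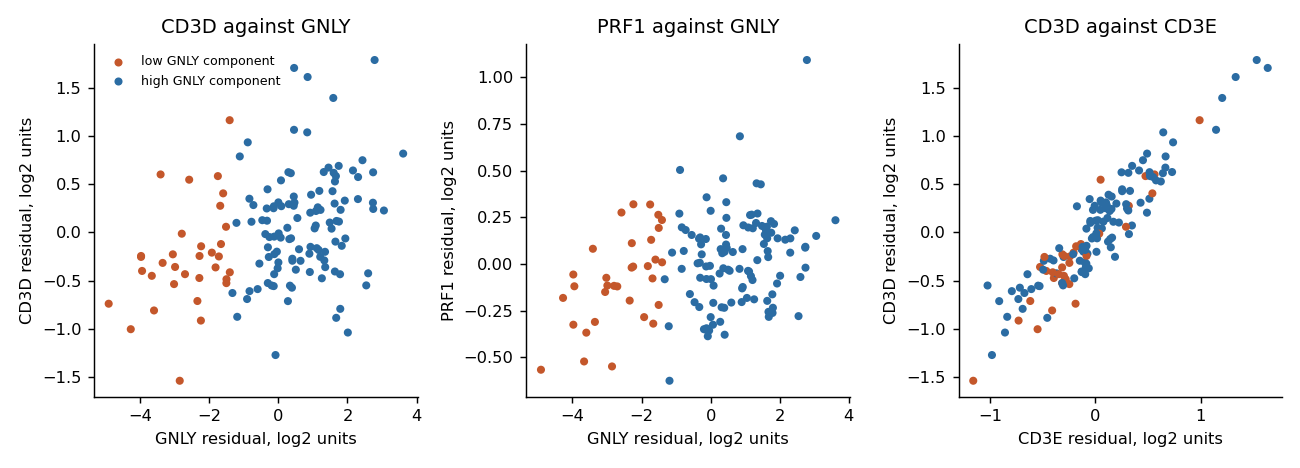
Residuals of class and age in log2 units for each of 145 cows, with CD3D and PRF1 against GNLY and, for comparison, CD3D against CD3E, coloured by the component of the GNLY residuals. CD3D and CD3E lie along a line (r = 0.932), whereas low and high GNLY cows overlap widely in CD3D and PRF1.

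The machinery that stores and releases granules was represented by 11 of 13 listed genes of granule exocytosis. Of these, 0 passed in limma beside 5.49% of all transcripts, a share at which few calls among 11 genes could occur, and 7 had an unadjusted p under 0.05 beside 35.2% of all. Their median slope was 0.0152, with 6 of the 11 positive. LAMP1, a lysosomal membrane protein exposed when granules fuse, had a slope of 0.02 (limma adjusted p = 0.0572), RAB27A, which docks granules, had -0.05 (limma adjusted p = 0.0954), and the fusion factor STXBP2 had 0.03 (limma adjusted p = 0.0983). Of the saposin-fold relatives of GNLY, PSAP (prosaposin) and SMPD1 (acid sphingomyelinase), together with the lipid-transfer protein GM2A that was listed with them, had slopes of 0.02 each, and 0 of 3 passed in limma (2 at an unadjusted p under 0.05).

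Lists of other leukocytes are read against the same 5.49% of all transcripts. Of 5 genes found in all leukocytes, 1 passed, the tetraspanin CD53, with a slope of 0.07 (limma adjusted p = 0.0469). Of 10 myeloid genes, 1 passed, a share near that of all transcripts. It was C1QA, a complement subunit of macrophages, with a slope of 0.08 (limma adjusted p = 0.0482), and all 10 slopes were positive with a median of 0.0596. Of 5 interferon-response genes 2 passed, IRF1 (0.08, limma adjusted p = 0.0401) and USP18 (0.06, limma adjusted p = 0.0457). At an unadjusted p under 0.05 in limma there were 4 of 5 leukocyte, 8 of 10 myeloid and 3 of 5 interferon-response genes. This compares with 13 of the 20 T and NK genes and 35.2% of all transcripts. Median slopes of these 3 lists were 0.0436, 0.0596 and 0.0658, beside 0.0466 for the T and NK genes, so positive slopes were not particular to the latter. With the first residual component as a covariate, 3 of 5, 4 of 10 and 5 of 5 genes of these lists had an unadjusted p under 0.05 in limma. This was beside 12 of the 20 T and NK genes and 9.19% of all transcripts. Median slopes in that fit were 0.0363, 0.0439 and 0.0608, beside 0.033 for the T and NK genes. The part of other leukocytes in the T and NK slopes was not tested.

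Lists of the gland itself and of other cells are too short for their counts to stand apart from the 5.49% of all transcripts. The counts at an adjusted p of 0.05 in limma were 0 of 9 for the adrenal cortex, 0 of 6 for the medulla, 0 of 6 for endothelium, 0 of 2 for B cells and 0 of 1 for red blood cells, with 1, 0, 1, 0 and 0 genes at an unadjusted p under 0.05 beside 35.2% of all transcripts. All 6 medulla slopes were negative, with a median of -0.0554 and a smallest adjusted p of 0.180. The medulla list varied over several log2 units between cows, and its part in the slopes on GNLY was not tested.

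The transcripts most like GNLY over the 145 cows, by the moderated t of the slope, were SUCLG1, a subunit of the citric acid cycle enzyme succinate-CoA ligase, COPS9 of the COP9 signalosome, MRPL24 of the mitochondrial ribosome, PSMB9, an immunoproteasome subunit induced by interferon-gamma, and RNASEH1, which cuts RNA in RNA-DNA hybrids. Their slopes were 0.05, 0.04, 0.05, 0.08 and 0.04, each with a limma adjusted p of 0.0342. The most opposed were ZFPM2 (-0.07), a GATA cofactor, PDE5A (-0.07), a cGMP phosphodiesterase, MAP1B (-0.09), a microtubule-associated protein, LUM (-0.11), a collagen-binding proteoglycan, and LRP6 (-0.06), a Wnt co-receptor, with the same adjusted p. With the first residual component as a covariate, none of the 10 passed in limma, with adjusted p from 0.271 to 0.373, and each kept its sign.

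Genes close to GNLY on the chromosome were examined next. In the order of the RefSeq gene table (assembly ARS-UCD2.0, used for order only), 5 protein-coding models, GNLY included, lie between ATOH8 and SFTPB, and 1 of them, LOC616323, carries the synonym NK1. None of the other 4 is named in the expression table. How far the array's probes for GNLY also bind transcripts of neighbouring NK-lysin copies was not tested.

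Of the 6 nearest measured genes, 2 passed, beside 5.49% of all transcripts. RNF181, a ubiquitin ligase, had a slope of 0.04 (standard error 0.0103, limma adjusted p = 0.0342) and the sixth largest positive t of all transcripts. C11H2orf68, of unknown function, had 0.03 (standard error 0.00907, limma adjusted p = 0.0396). USP39, which lies nearer to GNLY, had 0.02 (limma adjusted p = 0.0923), and VAMP5, VAMP8 and ATOH8 had adjusted p of 0.0551, 0.179 and 0.290. In the high component, r with GNLY was 0.320 for C11H2orf68 and 0.309 for RNF181 (adjusted p = 0.0170 by permutation for each, rho 0.321 and 0.314, and r = 0.314 and 0.290 without 2 cows). In the low component these r were -0.0101 and 0.376 (adjusted p = 0.976 and 0.103 by permutation). Neither neighbour passed with the first residual component as a covariate, at limma adjusted p of 0.435 and 0.363.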

How the data were processed

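Total RNA of each adrenal cortex was hybridised to a custom Affymetrix Bovine Gene v1 array. The authors processed the arrays with Affymetrix Expression Console and RMA, kept transcripts detected above background in most samples, and deposited log2 values. RMA makes arrays share 1 distribution, and low log2 values include background binding, so folds at the low end may be compressed. The number of arrays limits the precision. Of 147 labelled samples, 2 had no values and no class and were not used, as were their 2 columns. A symbol was assigned to 8863 transcripts, while 377 had several and 1746 none.

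Fits used limma 3.58.1 and statmod 1.5.0 in R 4.3.3 over all transcripts without a filter, with class and age as fixed terms, as in the study's model, or with class as a random block for season and year. Sires, dams and genotypes were not used, although many cows are sisters, and the effect of relatedness on the p-values was not tested. Mixtures were fitted with mclust 6.1.1. Permutation tests were two-sided with 100000 permutations. Adjusted p under 0.05 was called. The fits were tested on simulated data. GNLY, the gene lists and the tests were chosen with earlier results of these data known.

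Named genes are GNLY, the 5 largest positive and 5 largest negative moderated t with 1 symbol, the called members of the T, NK, granule and saposin lists, up to 6 members of each list with the highest mean, and up to 6 measured neighbours. Alternatives were centred arrays, normal scores, a mean filter of 5, another variance prior, shared variation as a covariate, GNLY components, and cows or years left out. The array set without the 5 least correlated arrays, and the groups of deposited values as a term, were chosen after seeing the data.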

Additional observations from a re-analysis of the deposited data

Results flagged for a closer look

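The lowest GNLY value of Summer2008 was far from the rest of its class. This cow had a log2 signal of 1.97, the nearest of the other 7 cows had 5.86 and the highest 8.09, so the gap made up 0.636 of the range of the 8 cows. Gaps were read against the critical value of Dixon's test at 95%, which is higher for smaller classes, so a larger share of the range in a class of 4 or 5 cows need not exceed it. Of 19 classes with 4 to 10 cows, 1 exceeded it, about the number that chance gives (1 in 20). GNLY was selected for its low and high values, so the gap is a description and not evidence that this cow differs.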

How the results depend on the processing

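No paired analysis was possible because each cow is a single sample and replicate numbers were given in accession order. The mean GNLY level, which carries no test, was 6.42 and ran from 6.41 to 6.45 with 1 cow left out. The test over classes and the slopes on age, season and year kept their side of the threshold under every alternative run. Signs turned, uncalled, for summer against winter with normal scores (0.01862) or without 2009 (0.03186), for age without Spring2005 to autumn2005 (-0.03965) or 2009 (-0.02206), and for year without Spring2005 to autumn2005 (-0.02012) or 2011 (-0.04494). The low component held 22.8% of cows and 17.7 to 25.5% under the alternatives, except without 2008, where a single component took 100% of the cows. The 603 transcripts and 7 T and NK genes that followed GNLY became 1585 and 11 with centred arrays, 3366 and 13 with normal scores of GNLY, 36 and 0 without the 2 farthest cows, 1268 and 11 without 2009, and 0 and 0 with the first residual component, within components, or without Spring2007 to winter2007/2008, or the years 2008, 2010 or 2011. With the groups of deposited values as a term there were 3042 and 10, and 510 of the 603 were among them. Single cows were left out only in classes of 2 to 5 cows, and those of larger classes were not. With 1 of these 42 cows left out, counts ran from 0 to 1843 and from 0 to 11. The count moved by over 1.5 times for 15 of 42 cows. It fell to 0 without autumn2005 replicate 1 or 2 (a class of 2, so that the other cow no longer counts) or Summer2004 replicate 1, and to 83 without Spring2005 replicate 3. It was 242 without Spring2007 replicate 2, 394 and 146 without Spring2009 replicates 1 and 3, and 240 and 157 without winter2009/2010 replicates 2 and 3. It was 1108 without autumn2004 replicate 1, 1073 without Spring2006 replicate 4, 1843 and 1444 without Summer2005 replicates 1 and 2, and 1353 and 960 without Summer2007 replicates 1 and 4. T and NK counts were 2 without Spring2005 replicate 3 and 4 without Spring2009 replicate 3 or winter2009/2010 replicate 3. The cause of these shifts was not tested. No slope of a named gene that passed changed sign. How far low GNLY signals exceed the array background was not analysed here.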
